A study of Mus musculus with 24 samples.

Results

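The genes described here were Gdf15, the transforming growth factor beta (TGF-beta) isoforms Tgfb1, Tgfb2 and Tgfb3, the activin subunit gene Inhba, the bone morphogenetic proteins Bmp4 and Bmp7, the receptors Tgfbr1 and Tgfbr2, and the pathway inhibitor Smad7. These 10 genes were taken by symbol from a table of 25239 genes, and each symbol was present. Their levels were followed per cell line in 24 RNA-seq libraries that form 8 groups of 3 mouse small cell lung cancer (SCLC) lines. The lines came from tumors of mice with the Trp53 XTR/XTR allele and Rosa26 FlpO-ER, in which Rb1 and Rbl2 are both flox/flox, initiated with an adenovirus that expresses Cre from the CMV promoter, so every group lacks Rb1 and Rbl2. In Control cells (vehicle) a gene trap keeps p53 off, and in Restored cells 4-hydroxytamoxifen (4-OHT) activates the FlpO-ER recombinase, which removes the trap. Both states were also combined with cyclosporin A (CsA), a cyclophilin inhibitor, to give Control + CsA and Restored + CsA, all sampled at 72 h. Type D lines (4711-1, 4711-18 and 4716-11) were named by the study for dying after p53 restoration and Type V lines (4711-11, 4716-10 and 4716-14) for staying viable. Each group holds 1 library of each of its 3 lines, and the labels give no animal for a line.

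TGF-beta family ligands are secreted dimers that bring together type I and type II serine-threonine kinase receptors, which then phosphorylate receptor Smad proteins that regulate transcription with Smad4. TGF-beta and activin act through Smad2 and Smad3, whereas bone morphogenetic proteins act through other receptor Smads. TGF-beta is secreted in a latent complex and must be released before it binds TGFBR2, which recruits TGFBR1. Smad7 is induced by the pathway and blocks the type I receptor. GDF15 is a distant member of the family that is induced by cellular stress and by p53, and that signals through GFRAL in the hindbrain.

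Upstream sequence is given for 3 of the genes because p53 restoration or the line type separated their levels most. RefSeq (GRCm38.p6) promoter windows were at hand for 7 of the 10 genes, and the 250 bases before the transcription start are printed 5′ to 3′ on the strand of the gene. Capitals mark matches on either strand to 1 of 3 motifs. The SMAD core was searched as CAGAC. For the E-box, a motif bound by basic helix-loop-helix proteins, the letters were CACGTG. The TATA box, which positions the start of transcription, was searched as TATAAA.
Gdf15 (chr8:70632457-70632706, minus strand): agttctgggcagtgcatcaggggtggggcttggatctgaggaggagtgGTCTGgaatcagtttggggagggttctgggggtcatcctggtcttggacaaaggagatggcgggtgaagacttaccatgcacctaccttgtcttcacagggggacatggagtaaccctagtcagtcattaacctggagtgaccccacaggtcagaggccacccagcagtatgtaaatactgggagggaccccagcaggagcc
Inhba (chr13:16011601-16011850, plus strand): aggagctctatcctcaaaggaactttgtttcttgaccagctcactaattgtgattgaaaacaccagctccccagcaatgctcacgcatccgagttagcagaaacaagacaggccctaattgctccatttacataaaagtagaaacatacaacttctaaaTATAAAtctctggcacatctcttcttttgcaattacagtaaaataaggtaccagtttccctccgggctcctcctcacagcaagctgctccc
Tgfb2 (chr1:186705990-186706239, minus strand): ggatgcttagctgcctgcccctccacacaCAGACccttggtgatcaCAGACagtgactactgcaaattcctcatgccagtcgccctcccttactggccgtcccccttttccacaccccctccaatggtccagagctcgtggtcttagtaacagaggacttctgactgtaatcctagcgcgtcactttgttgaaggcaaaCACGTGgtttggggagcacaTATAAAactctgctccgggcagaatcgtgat

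In these windows the Gdf15 match to the SMAD core began 202 bases before the start. The Tgfb2 window held 2 SMAD cores, at 221 and 204 bases before the start, an E-box at 51 and a TATA box at 31. The Inhba window held a TATA box at 91 bases and no SMAD core. Of all 32851 windows of 250 bases, 42.2% held a SMAD core, 6.0% an E-box and 12.4% a TATA box. The p53 half-site consensus, found in 7.1% of windows, had 1 match among the 7 members, in Tgfbr2 at 214 bases before the start, and none in Gdf15 or Inhba. A match is a run of letters and not a site of binding, and the absence of one says nothing about sites elsewhere.

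Values are TPM, a level per transcript length scaled to the same total in each library, and the read depth behind them is unknown. Differences are log2(TPM + 1) contrasts from a limma fit to the 14104 genes with at least 1 TPM in at least 3 libraries, which included all 10 genes. A gene was called at a Benjamini-Hochberg adjusted p under 0.05 and a difference of at least 1 on the log2 scale. Trp53, the restored gene, lay between 10.5 and 15.3 TPM in the 12 libraries without 4-OHT. It lay between 182 and 253 TPM in the 12 with it, so every library followed its label for restoration. The CsA, line and type labels were not checked this way. Cdkn1a, the p53 target that encodes p21, lay between 37.5 and 145 TPM without and between 1068 and 2540 TPM with restoration. The SCLC label could not be read from neuroendocrine markers: 6 of 10 markers stayed under 1 TPM in all Type D libraries and 5 of 10 in all Type V libraries. Chga and Scg3 were listed at 0 in all 12 Type D libraries, whereas Ncam1 was at 4.46 to 22.1 TPM in Type D and 7.18 to 27.3 TPM in Type V. In bulk RNA, fewer cells of a kind and less RNA per cell cannot be told apart.

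Across the comparisons, line type gave a call for 3 of the 10 genes and p53 restoration for 1 or 2. Gdf15 was higher and Tgfb2 and Tgfb3 were lower in Type D than in Type V under each of the 4 treatments. Over all genes tested, the calls were 4.42% higher and 4.41% lower in Control, 4.81% and 5.07% in Control + CsA, 4.45% and 4.99% in Restored, and 3.76% and 4.06% in Restored + CsA. This balance turned with quantile normalization, where 58.7% of the calls were higher in Control against 50.1% before, and 57.6%, 55.4% and 55.1% in the other 3 treatments against 48.7%, 47.1% and 48.1%, while the directions of the 3 genes did not change. After restoration Gdf15 was the 1 gene called in Type D (4.49% of all genes were called higher) and in Type V (3.39%), and it was also called in Type D under CsA (3.53%). With the cell line as a block, which compares each line with itself, Gdf15 and Inhba were both called in each of the 4 restoration comparisons. That fit called 7.05% of all genes higher in Type D, 5.74% in Type V, 5.91% in Type D under CsA and 5.03% in Type V under CsA. Over the mean of both types, a comparison added after the values were seen, Gdf15 was called (4.62% of all genes higher), and with the block Gdf15 and Inhba (5.63%). The study had placed Gdf15 in a module of genes induced in Type D and Tgfb2 and Tgfb3 in its Type V signature, on these same samples, so their directions here are not independent evidence.

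Gdf15 (ENSMUSG00000038508.7, GRCm38 chr8:70629393-70632456) had the widest range of the 10 genes. In Control it was at 49.5, 218 and 87.0 TPM in the Type D lines 4711-1, 4711-18 and 4716-11, and at 1.63, 6.14 and 5.09 TPM in the Type V lines 4711-11, 4716-10 and 4716-14. In Restored it reached 1303, 3023 and 859 TPM in Type D and 8.94, 58.9 and 66.7 TPM in Type V. The lowest Type D library lay above the highest Type V library within each treatment, and 2 restored Type V lines (4716-10 and 4716-14) exceeded the lowest Type D Control library. Of all tested genes, 29.2% to 31.8% were separated by type, in one direction or the other, within a single treatment. In Control + CsA the levels were 80.9, 262 and 130 TPM in Type D and 3.80, 9.29 and 10.3 TPM in Type V. In Restored + CsA they were 628, 1766 and 698 TPM in Type D and 13.8, 87.1 and 97.6 TPM in Type V. The line 4711-18 was the highest and 4711-11 the lowest of the 6 lines under every treatment.

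**Figure D1:**
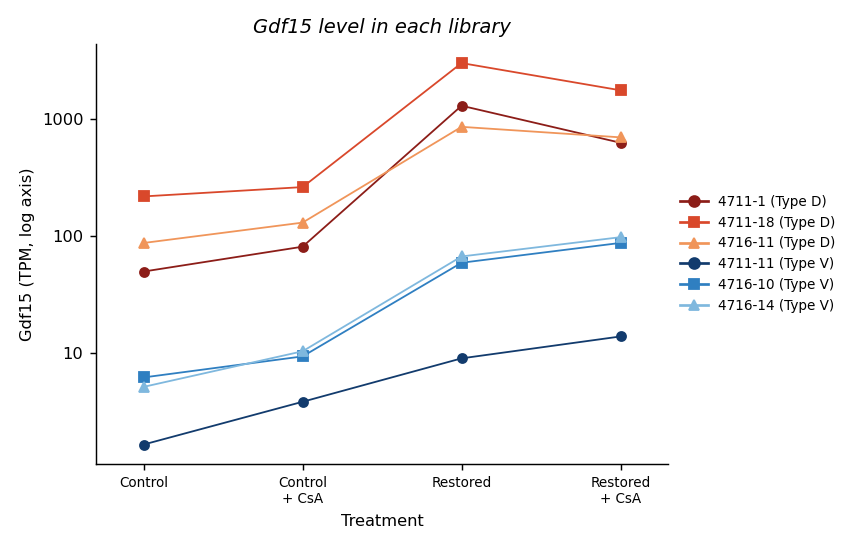
Gdf15 level (TPM, log axis) in each of the 24 libraries by treatment, with points for libraries and a line joining the 4 libraries of 1 cell line. Every Type D line (red shades) lies above every Type V line (blue shades) within a treatment, and all 6 lines are higher in Restored than in Control.

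The Type D minus Type V difference in Gdf15 was 4.35 ± 0.81 on the log2 scale (SE, n = 3 lines per type) in Control, with adjusted p = 0.00129. It was 4.10 in Control + CsA (adjusted p = 0.00203), 5.45 in Restored (adjusted p = 0.00016) and 4.19 in Restored + CsA (adjusted p = 0.00204). These 4 differences are not 4 independent results, since each treatment used the same 6 lines. The SE pools the spread of all 24 libraries as if they were independent, although they come from 6 lines. The p-values of these and the other type differences thus count more replicates than 3 lines per type.

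Restoration raised Gdf15 in all 6 lines, and 23.8% of all tested genes were higher in all 6. Gdf15 rose by 26.3-fold in 4711-1, 13.9-fold in 4711-18 and 9.88-fold in 4716-11, and by 5.47-fold in 4711-11, 9.60-fold in 4716-10 and 13.1-fold in 4716-14. The mean rise was 3.92 ± 0.81 (SE) on the log2 scale in Type D (adjusted p = 0.00281) and 2.82 ± 0.81 in Type V (adjusted p = 0.0313). With the cell line block the same rises had adjusted p = 8.09e-08 and 3.74e-06. Without 4711-1 the Type D rise was 3.54 and missed the threshold (adjusted p = 0.0606). The Type V call was lost in the unblocked fit without 4716-10 (2.69, adjusted p = 0.152), without 4716-14 (2.49, adjusted p = 0.194), without 4711-1 (adjusted p = 0.0539), without 4716-11 (adjusted p = 0.0711) and when the 2 groups were fitted alone (adjusted p = 0.182). The rise was 1.10 larger in Type D than in Type V, with a 95% interval of -1.30 to 3.51 and adjusted p = 1, and with the block the interval was 0.19 to 2.01 and adjusted p = 0.14. No difference in the rise between types was therefore called. The added 1 in log2(TPM + 1) also shrinks the Type V rise, from Control levels of 1.63 to 6.14 TPM, more than the Type D rise.

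Under CsA, Gdf15 after restoration was 7.76-fold, 6.74-fold and 5.37-fold its Control + CsA level in the Type D lines 4711-1, 4711-18 and 4716-11, and 3.63-fold, 9.37-fold and 9.49-fold in the Type V lines 4711-11, 4716-10 and 4716-14. The mean was 2.70 ± 0.81 in Type D (adjusted p = 0.0433), a call that was lost under 10 of 14 alternatives but not with the block (adjusted p = 4.93e-06). In Type V the mean was 2.62 ± 0.81 and missed the threshold (adjusted p = 0.0561; 2.84% of all genes were called higher), and with the block it was called (adjusted p = 8.64e-06). It was also called without 4711-18 (adjusted p = 0.0478) or without 4711-11 (3.11, adjusted p = 0.0154). The Type D call under CsA did not survive leaving out any of the 3 Type D lines, 4716-10 or 4716-14 (adjusted p from 0.054 to 0.231).

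CsA itself went with opposite directions of Gdf15 in restored cells of the 2 types. Restored + CsA was at 0.482, 0.584 and 0.813 times Restored in the Type D lines 4711-1, 4711-18 and 4716-11, and at 1.54, 1.48 and 1.46 times Restored in the Type V lines 4711-11, 4716-10 and 4716-14. All 3 Type D lines thus lay lower and all 3 Type V lines higher. Such splits by type were looked for in all 10 genes and each within-line comparison, and Tgfbr2 gave another. How many of all tested genes split this way was not counted. The mean difference was -0.71 on the log2 scale in Type D (95% interval -2.41 to 0.99) and 0.56 in Type V (95% interval -1.15 to 2.26), and neither was called (adjusted p = 1 for both). With the block, the Type D difference had an interval of -1.35 to -0.07 and adjusted p = 0.339. In Control cells CsA went with higher Gdf15 in all 6 lines, by 1.20-fold to 2.32-fold, which 5.44% of all tested genes shared. No call was made in either type (adjusted p = 1, and with the block at least 0.825).

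Tgfb1 (ENSMUSG00000002603.15, GRCm38 chr7:25687002-25705077) encodes the broadly expressed TGF-beta isoform and was the most abundant of the 3 isoforms in all 24 libraries. Tgfb1 in Control was at 134, 49.4 and 113 TPM in the Type D lines 4711-1, 4711-18 and 4716-11 and at 88.5, 137 and 91.7 TPM in the Type V lines 4711-11, 4716-10 and 4716-14. The Restored levels were 202, 78.3 and 138 TPM in Type D and 110, 163 and 116 TPM in Type V. The types overlapped under every treatment, and 4711-18 was the lowest line throughout. All 6 lines were higher in Restored than in Control, by 1.19-fold to 1.59-fold, against 23.8% of all tested genes that were higher in all 6 lines. The mean difference was 0.51 ± 0.41 (SE) on the log2 scale in Type D (adjusted p = 0.502) and 0.30 ± 0.41 in Type V (adjusted p = 0.77). With the block, the Type D difference had adjusted p = 0.0165 but stayed under the required size of 1. Restored + CsA was lower than Restored in all 6 lines, at 0.641 to 0.990 times the level, which 4.91% of all tested genes shared, and no call was made.

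Tgfb2 (ENSMUSG00000039239.14, GRCm38 chr1:186622792-186705989) encodes an isoform that is prominent in mesenchymal tissues and needs betaglycan, the product of Tgfbr3, to bind TGFBR2 well. Tgfb2 in Control was at 0.336, 4.65 and 0.893 TPM in the Type D lines 4711-1, 4711-18 and 4716-11 and at 49.0, 46.4 and 28.2 TPM in the Type V lines 4711-11, 4716-10 and 4716-14. The Restored levels of Tgfb2 were 0.128, 2.18 and 0.558 TPM in Type D and 106, 38.6 and 9.95 TPM in Type V. The types did not overlap under any treatment, where 29.2% to 31.8% of all tested genes were separated within a single treatment. The line 4711-18 was the 1 Type D line above 1 TPM. The difference between types was -4.08 ± 0.84 in Control (adjusted p = 0.0029), -4.09 in Control + CsA (adjusted p = 0.00268), -4.34 in Restored (adjusted p = 0.00179) and -3.99 in Restored + CsA (adjusted p = 0.00375). In Restored the call was lost when the 2 groups were fitted alone (adjusted p = 0.0512).

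After restoration Tgfb2 went in opposite directions among the Type V lines. It was 2.17 times the Control level in 4711-11, 0.834 times in 4716-10 and 0.353 times in 4716-14, and under CsA it was 0.793, 0.815 and 0.488 times. The 3 Type D lines were at 0.380, 0.469 and 0.625 times their Control level. The mean difference was -0.45 ± 0.84 in Type D and -0.19 ± 0.84 in Type V, with adjusted p = 0.833 and 0.96.

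Tgfb3 (ENSMUSG00000021253.7, GRCm38 chr12:86056745-86079041), the remaining isoform, is best known from palate and lung development. Control levels of Tgfb3 were 4.49, 7.82 and 10.6 TPM in the Type D lines 4711-1, 4711-18 and 4716-11 and at 42.9, 45.4 and 27.0 TPM in the Type V lines 4711-11, 4716-10 and 4716-14. Restored levels of Tgfb3 were 3.34, 3.68 and 8.44 TPM in Type D and 66.9, 36.4 and 20.0 TPM in Type V. The types did not overlap under any treatment, where 29.2% to 31.8% of all tested genes were separated within a single treatment. As for Tgfb2, the line 4711-11 was the 1 line higher in Restored than in Control. The difference between types was -2.22 ± 0.51 in Control (adjusted p = 0.00659), -2.24 in Control + CsA (adjusted p = 0.0058), -2.71 in Restored (adjusted p = 0.00146) and -2.62 in Restored + CsA (adjusted p = 0.00215). Without 4711-1 the calls in Control (-1.93, adjusted p = 0.0622) and Control + CsA (-1.97, adjusted p = 0.0513) were lost.

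As a share of the summed TPM of the 3 isoforms, Tgfb1 made up 74.9% to 98.3% in the 12 Type D libraries and 38.9% to 79.5% in the 12 Type V libraries. Tgfb2 made up 0.0621% to 13.9% in Type D and 6.81% to 37.5% in Type V, and Tgfb3 1.62% to 12.7% in Type D and 12.8% to 32.6% in Type V. The shares of the 3 isoforms sum to the whole and are not independent of each other. Fibroblast markers differed between the types in the same direction as Tgfb2 and Tgfb3: the summed TPM of 8 markers was 0.304 to 1.93 in Type D and 75.6 to 572 in Type V. Of these markers 7 of 8 were under 1 TPM in all Type D libraries and 3 of 8 were at least 1 TPM in all Type V libraries, while Thy1 was listed at 0 in all Type V libraries and Lum reached at most 0.844 TPM. Their part in the difference was not tested.

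**Figure D2:**
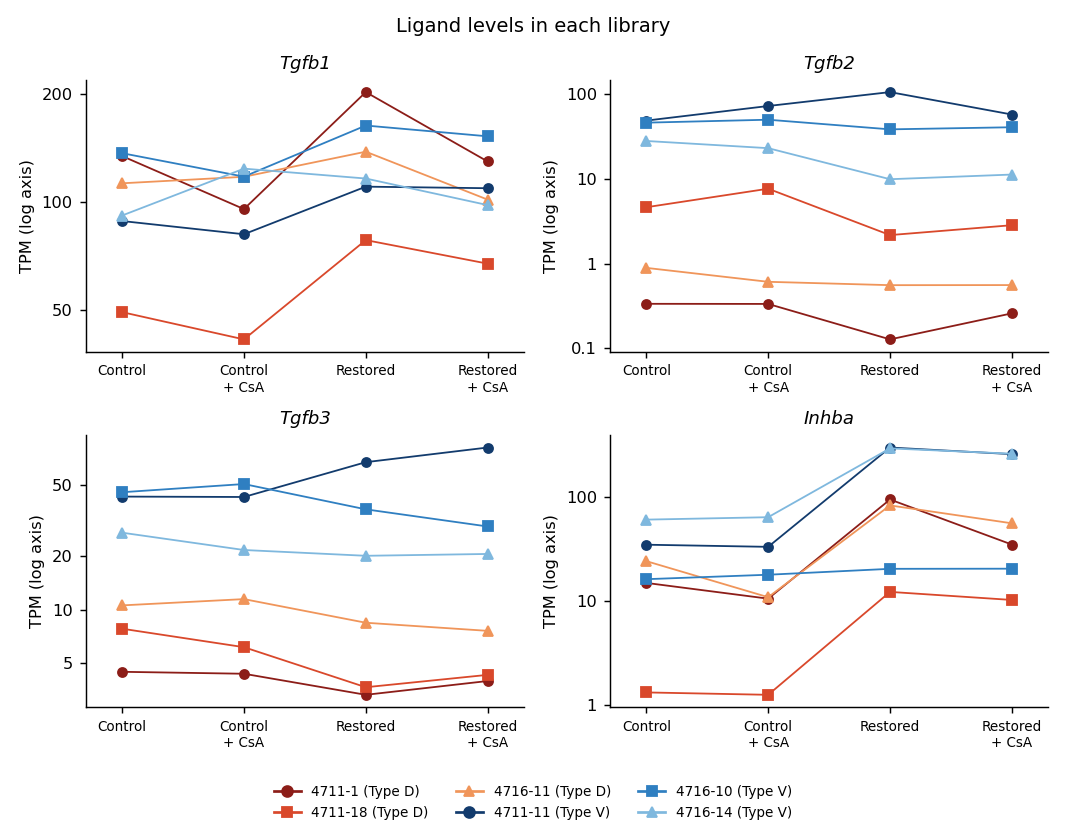
Levels (TPM, log axes with different ranges) of Tgfb1, Tgfb2, Tgfb3 and Inhba in each library by treatment, with a line joining the 4 libraries of 1 cell line. Tgfb2 and Tgfb3 are separate between Type D (red shades) and Type V (blue shades), Tgfb1 overlaps, and Inhba is higher in Restored than in Control in each line but nearly level in 4716-10.

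Inhba (ENSMUSG00000041324.14, GRCm38 chr13:16011851-16031621) encodes the beta A subunit, whose dimer is activin A. Its Control levels were 15.0, 1.32 and 24.3 TPM in the Type D lines 4711-1, 4711-18 and 4716-11 and at 34.9, 16.3 and 60.9 TPM in the Type V lines 4711-11, 4716-10 and 4716-14. Its Restored levels were 95.2, 12.3 and 83.4 TPM in Type D and 301, 20.5 and 295 TPM in Type V. All 6 lines were higher, which 23.8% of all tested genes shared. Inhba rose by 6.36-fold, 9.29-fold and 3.44-fold in Type D and by 8.63-fold, 1.26-fold and 4.85-fold in Type V, so that 4716-10 stood apart from the other 5. The difference was 2.28 ± 1.20 (SE) on the log2 scale in Type D (adjusted p = 0.251) and 1.88 ± 1.20 in Type V (adjusted p = 0.404) without the block, where the spread among lines enters the error. With the cell line block the same differences had SE 0.45 and were called, at adjusted p = 0.000769 and 0.00368.

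Under CsA, Inhba in Restored was 3.32-fold, 8.18-fold and 5.15-fold its level in Control in the Type D lines and 7.81-fold, 1.14-fold and 4.09-fold in the Type V lines. These differences were 2.07 and 1.71 on the log2 scale, not called without the block (adjusted p = 0.34 and 0.503) and called with it (adjusted p = 0.00187 and 0.00782). In Type D the levels in Restored + CsA were 0.368, 0.836 and 0.673 times those in Restored, a mean of -0.74 on the log2 scale with a 95% interval of -3.25 to 1.77 and, with the block, -1.70 to 0.23. Over the mean of both types without CsA the difference was 2.08 (adjusted p = 0.0857), called with the block (adjusted p = 5.12e-05) and without 4716-10 (2.47, adjusted p = 0.0276). The type difference was -1.79 ± 1.20 in Control (adjusted p = 0.358) and missed the threshold under each treatment, although in Restored + CsA it was called without 4716-10 (-3.20, adjusted p = 0.0475). In Control + CsA all Type D lines (at most 10.9 TPM) lay below all Type V lines (at least 17.95 TPM). Of tested genes, 31.8% were separated there in one direction or the other.

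Bmp4 (ENSMUSG00000021835.15, GRCm38 chr14:46383520-46390669), a morphogen of lung budding, differed among lines more than between groups. In Control it was at 23.0, 79.7 and 27.2 TPM in the Type D lines 4711-1, 4711-18 and 4716-11 and at 31.0, 135 and 34.0 TPM in the Type V lines 4711-11, 4716-10 and 4716-14. In Restored it was at 23.5, 65.2 and 18.4 TPM in Type D and 113, 109 and 22.7 TPM in Type V. The line 4711-11 was 3.64-fold higher in Restored than in Control, while the other 5 lines were between 0.667 and 1.02 times Control. With CsA added, restored 4711-11 was back at 41.3 TPM, 0.366 times its Restored level. No comparison called Bmp4. Bmp7 (ENSMUSG00000008999.7, GRCm38 chr2:172868012-172940321), a ligand of kidney and brown fat development, did not exceed 1.88 TPM in any library and was listed at 0 in the 4 libraries of 4711-11. It was not called in any comparison.

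Tgfbr2 (ENSMUSG00000032440.13, GRCm38 chr9:116084293-116175360) encodes the type II receptor that binds TGF-beta. Tgfbr2 in Control was at 96.8, 87.6 and 141 TPM in the Type D lines 4711-1, 4711-18 and 4716-11 and at 226, 79.2 and 273 TPM in the Type V lines 4711-11, 4716-10 and 4716-14. The line 4716-10 was below all Type D lines in Control, while the other 2 Type V lines lay above all of them. The type difference was -0.67 ± 0.54 in Control (adjusted p = 0.453), and without 4716-10 it was -1.22 and called (adjusted p = 0.0032), as it was in Control + CsA (-1.40, adjusted p = 0.00108) and Restored (-1.19, adjusted p = 0.00343). Control + CsA was higher than Control in all 6 lines, by 1.17-fold to 1.69-fold, which 5.44% of all tested genes shared. The difference was 0.36 on the log2 scale over both types, without a call (adjusted p = 1, and 0.232 with the block).

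Tgfbr1 (ENSMUSG00000007613.15, GRCm38 chr4:47353222-47414931) encodes the type I receptor, ALK5. In Control it was at 23.0, 17.1 and 26.9 TPM in the Type D lines 4711-1, 4711-18 and 4716-11 and at 28.1, 36.6 and 40.0 TPM in the Type V lines 4711-11, 4716-10 and 4716-14. All Type V lines lay above all Type D lines in Control, as 31.4% of tested genes were separated in one direction or the other, but not under the other 3 treatments. The difference of -0.63 ± 0.25 was not called (adjusted p = 0.111). The ratio of Tgfbr2 to Tgfbr1 in TPM was 3.70 to 7.26 in Type D and 2.15 to 14.6 in Type V, with 4716-10 at 2.15 to 2.84 in its 4 libraries.

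Smad7, the inhibitory Smad, was at 65.8, 38.1 and 52.3 TPM in Control in the Type D lines 4711-1, 4711-18 and 4716-11 and at 21.7, 43.1 and 27.6 TPM in the Type V lines 4711-11, 4716-10 and 4716-14. In Restored it was at 89.3, 45.1 and 96.4 TPM in Type D and 32.7, 49.5 and 47.7 TPM in Type V. The types overlapped in Control, where 4711-18 lay below 4716-10, and in Restored, where 4711-18 lay below 4716-10 and 4716-14. In Restored + CsA all Type D lines lay above all Type V lines, as 30.05% of tested genes were separated in one direction or the other. The gap was narrow, with the lowest Type D line at 58.52 TPM and the highest Type V line at 58.42 TPM. All 6 lines were higher in Restored, by 1.15-fold to 1.84-fold, which 23.8% of all tested genes shared. All 6 were also higher in Restored + CsA than in Control + CsA, by 1.11-fold to 2.81-fold, which 22.2% shared. The mean difference was 0.51 ± 0.33 in each type without CsA (adjusted p = 0.372 in Type D and 0.417 in Type V), and with the block the adjusted p was 0.0526 and 0.0593. Under CsA it was 0.52 in Type D (adjusted p = 0.406, and 0.0554 with the block) and 0.93 in Type V (adjusted p = 0.102, and 0.0024 with the block). The Type V value under CsA stayed under the required size of 1, and the difference between types under CsA was -0.41 with a 95% interval of -1.39 to 0.57. The type difference was 0.76 ± 0.33 in Control (adjusted p = 0.143), and in Control + CsA it was called without 4711-18 (1.05, adjusted p = 0.0403) or without 4716-10 (1.10, adjusted p = 0.0336). In Restored it was called without 4711-18 (1.10, adjusted p = 0.0341).

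**Figure D3:**
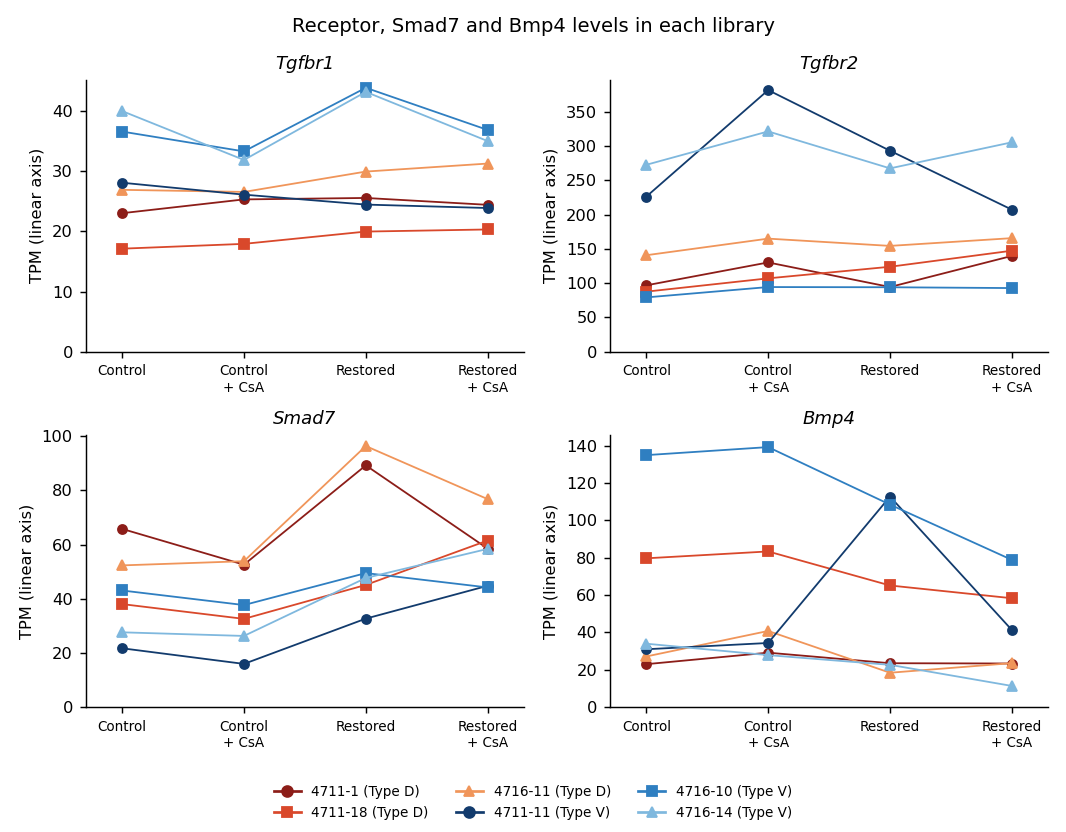
Levels (TPM, linear axes from 0) of Tgfbr1, Tgfbr2, Smad7 and Bmp4 in each library by treatment, with a line joining the 4 libraries of 1 cell line. The Type V line 4716-10 (blue squares) is the lowest in Tgfbr2 in Control at 79.2 TPM, and Bmp4 goes from 31.0 to 113 TPM in 4711-11, against 0.667 to 1.02 times Control in the other 5 lines.

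**Figure D4:**
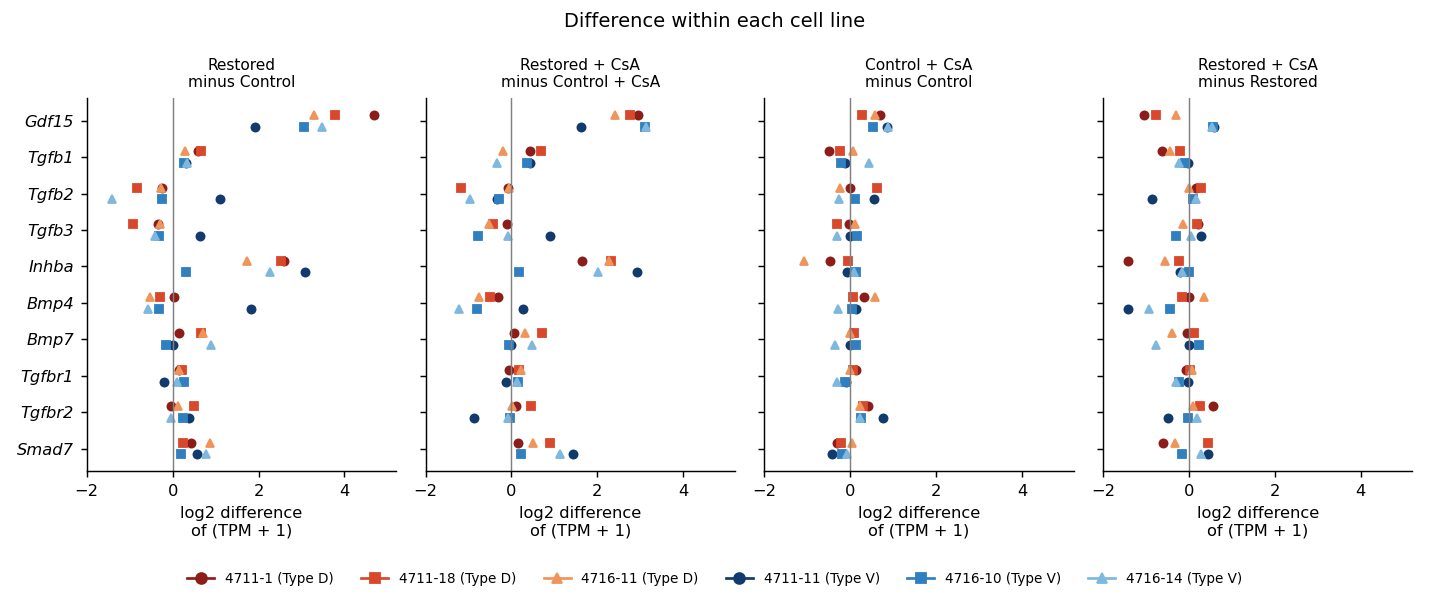
Differences within each cell line in log2(TPM + 1) for the 10 genes, in 4 panels for restoration without and with CsA and for CsA on Control and Restored cells, with 1 point per line. Gdf15 and Inhba lie to the right in both restoration panels, and Gdf15 splits by type in the panel for CsA on restored cells.

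Order of levels differed among genes. For Gdf15 the group means ran from 1728 ± 1143 TPM (SD, n = 3) in Type D Restored and 1031 ± 638 in Type D Restored + CsA to 158 ± 93.6 in Type D Control + CsA, 118 ± 88.4 in Type D Control, 66.2 ± 45.7 in Type V Restored + CsA, 44.9 ± 31.3 in Type V Restored, 7.79 ± 3.49 in Type V Control + CsA and 4.29 ± 2.36 in Type V Control. Neighbours in that order overlapped in range except ranks 2 and 3. For Tgfb2 the break came between Type V Restored + CsA (36.7 ± 23.6) and Type D Control + CsA (2.88 ± 4.17), and for Tgfb3 between Type V Control + CsA (38.2 ± 15.0) and Type D Control (7.62 ± 3.04). For the other 7 genes all neighbours overlapped.

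The comparisons that isolate CsA or set 2 responses against each other called none of the 10 genes. Each rests on differences within lines, but the fit without the block leaves the spread among lines in its error. Few genes could pass in that fit, so its counts of 0 cannot show that CsA had no effect. For CsA on Control cells, limma called 0% of all genes in each type alone and over both types. At an unadjusted p under 0.05, 0 of the 10 genes passed in each, against 0.808% of all genes in Type D, 0.383% in Type V and 1.37% over both. With the block 0 passed in Type D (6.76% of all genes) and 2, Gdf15 and Tgfbr2, in Type V (4.32%) and over both (10.2%). For CsA on Restored cells 0.0142% of all genes were called in Type D, against 0% in Type V and 0% over both types. At an unadjusted p under 0.05, 0 of the 10 genes passed, against 1.62% of all genes in Type D, 0.709% in Type V and 1.27% over both. With the block Gdf15 and Tgfb1 passed in Type D (12.6% of all genes), Bmp4 in Type V (4.49%) and Tgfb1 over both (11.1%). The restoration response differed between types for 0.0284% of all genes without CsA and 0.0142% under CsA, the CsA by restoration interaction for 0% in each type, and the CsA effect between types for 0% in both Control and Restored cells. In these, 0 of the 10 genes passed an unadjusted p under 0.05, against 0.163% to 3.83% of all genes. With the block 1 gene, either Gdf15 or Tgfbr2, passed in each but the CsA effect on Control, against 1.35% to 22.4% of all genes, with adjusted p of at least 0.14.

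A wider list of 89 further pathway genes, of which 68 were tested, was read in the same fit. For Type D minus Type V in Control the median difference over the list was -0.27, against -0.12 over all genes. In that comparison 3 of the 68 were called higher and 11 lower, against 4.42% and 4.41% of all genes. Those higher in Type D were Bmp5 (4.99, adjusted p = 0.00147), Amhr2, the type II receptor for anti-Müllerian hormone (2.08, adjusted p = 0.00186), and Id2, a target of bone morphogenetic proteins (1.43, adjusted p = 0.0253). Bmp5 was at 113, 6.66 and 39.0 TPM in the Type D lines 4711-1, 4711-18 and 4716-11 and at most 0.0865 TPM in Type V. The largest of those lower in Type D were Col1a1, a type I collagen gene listed as a target (-5.49, adjusted p = 0.0288), Dcn, a matrix proteoglycan that binds TGF-beta (-5.13, adjusted p = 3.41e-06), Thbs1, an activator of latent TGF-beta (-4.96, adjusted p = 0.000427), Tgfbr3, the coreceptor for Tgfb2 (-3.89, adjusted p = 7.57e-05), and Fst, which traps activin (-3.21, adjusted p = 0.0442).

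Thbs1 was at 15.6, 42.7 and 35.2 TPM in the Type D lines and at 842, 594 and 1590 TPM in the Type V lines 4711-11, 4716-10 and 4716-14. Tgfbr3 was at 0.018, 0.0315 and 0 TPM in Type D and at 4.89, 31.9 and 16.7 TPM in Type V. Dcn in Control reached 0.0914 TPM in the Type D lines, against 62.1, 28.0 and 24.7 TPM in the Type V lines. Neither type overlapped the other in any of these 3 genes, as 31.4% of tested genes were separated in Control. Col1a1 and Dcn are also among the 8 fibroblast markers, and the study had put Thbs1 and Snai2, another called gene, in its Type V signature on these samples. Of the 7 other Smad proteins none was called.

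**Figure D5:**
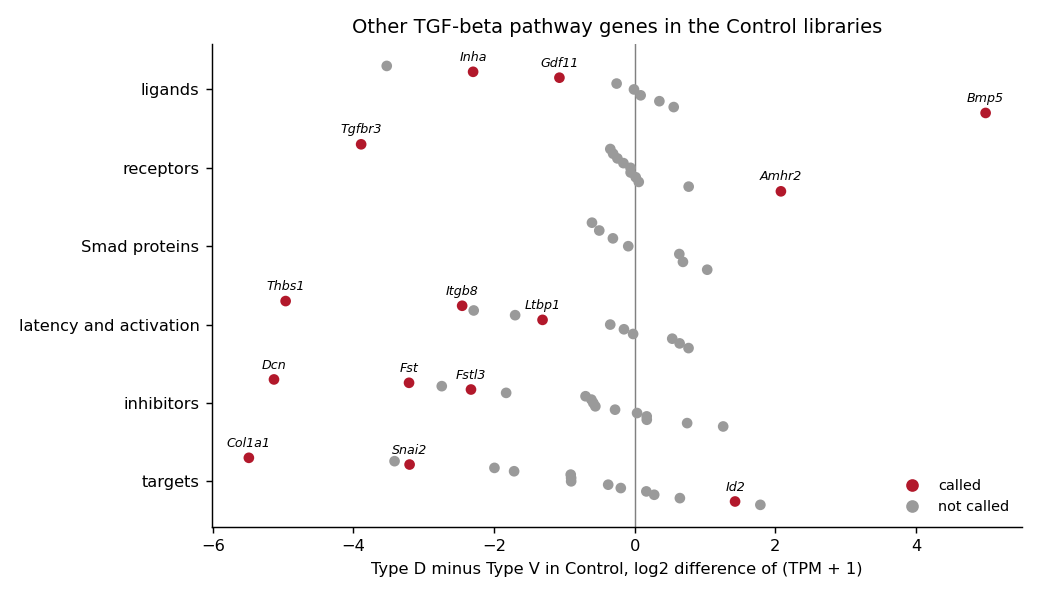
Type D minus Type V difference in Control (log2 of TPM + 1, horizontal axis) for the 68 tested pathway genes beside the 10, grouped by role, with called genes in red and named. Called genes lie on the lower side in 11 cases and on the higher side in 3, and the 7 Smad proteins hold none. Over all genes 4.41% were called lower and 4.42% higher.

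After restoration the same list held 1 called gene in Type D and 0 in Type V. In Type D this was Bmp8a, a ligand of the bone morphogenetic protein group that the study had placed in the same module as Gdf15 on these samples. It was at 0.392, 0.153 and 0.214 TPM in Control and 2.99 to 5.34 TPM in Restored in the Type D lines (1.92 on the log2 scale, adjusted p = 4.86e-06). In the Type V lines Bmp8a was also higher, at 0.0635 to 0.284 TPM in Control and 0.942 to 1.44 TPM in Restored. It was not called there, since its rise stayed under the required size of 1. At such low levels the added 1 in log2(TPM + 1) shrinks differences. Under CsA its Type V rise was 1.09, with adjusted p = 0.000105 in the fit with the block. Under CsA without the block, 1 of the 68 genes was called higher in Type D and 3 in Type V. Of all genes, 3.53% and 2.84% were called higher there. Over all genes 4.49% were called higher and 2.44% lower in Type D, against 3.39% and 1.9% in Type V. With the cell line block 7 of 68 were called in Type D (6 higher, 1 lower) and 10 of 68 in Type V (8 higher, 2 lower). That fit called 7.05% of all genes higher and 4.16% lower in Type D, and 5.74% and 2.93% in Type V. The genes named next fall outside the rule for names and were chosen after their values were seen. Grem1 and Nbl1, which encode antagonists of bone morphogenetic proteins, and Tgfbi, a target of TGF-beta, were called higher in both types with the block. Chrd, another antagonist of bone morphogenetic proteins, was called lower in Type D (-1.06, adjusted p = 0.0011). Called lower in Type V were Col1a1, listed as a target (-1.46, adjusted p = 0.00472), and Itgb8, an integrin subunit that activates latent TGF-beta (-1.34, adjusted p = 9.26e-05). Tgfbi rose by 1.87 in Type D (adjusted p = 2.77e-05) and 1.69 in Type V (adjusted p = 8.54e-05), and Grem1 by 1.89 and 1.43 (adjusted p = 0.00299 and 0.019). Fst, the activin antagonist, was called in Type V with the block (3.25, adjusted p = 0.000346), where its level was 5.42 to 23.5 TPM in Control and 54.5 to 651 TPM in Restored.

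Likeness of pattern was measured as Pearson's r of log2(TPM + 1) over the 24 libraries, which share 6 lines, so it is given without a test. The genes most like Gdf15 were Tecpr1 (r = 0.975), Pick1 (0.967), Ugdh (0.942), Lama5 (0.94) and Areg (0.938). Areg, which encodes an EGF receptor ligand, was at 172 to 1650 TPM in Type D and 7.56 to 209 TPM in Type V. Tecpr1, Ugdh, Lama5 and Areg are in lists that the study chose on these samples. Genes most like Tgfb2 included Gm15050 (r = 0.978), Fgfr2 (0.972), Hotairm1 (0.963) and Nab1 (0.962). Fgfr2, a fibroblast growth factor receptor, was at most 2.53 TPM in Type D and at 9.53 to 78.0 TPM in Type V.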

How the data were processed

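The authors deposited 1 table of TPM values for 25239 genes and 24 libraries, each column summing to 1000000. Per the labels, RNA went through a stranded, poly(A)-selecting kit, and HISAT2, mm10 and GRCm39 are named. The study's methods name Kallisto or HISAT2, and which made this table, and on which build, is not given in the sources used here. Coordinates are from GENCODE M21 on GRCm38.

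Here, log2(TPM + 1) was fitted with limma 3.58.1 in R 4.3.3, with 1 coefficient per group and a mean-variance trend, on 14104 genes with at least 1 TPM in at least 3 libraries. Of 21 comparisons, 15 were planned and 6 added after the values were seen. Tests are two-sided, and p-values are Benjamini-Hochberg adjusted over all genes tested. The methods state no block, so the main fit has none. The 3 lines of a type are replicates, with 1 culture of each per treatment. Same-line libraries deviated together from their group means (36 pairs, r 0.599 to 0.929), as the same line does, so a fit with the cell line as a block is given where it changes a call. Names follow a rule: the 10 genes, called pathway genes separated by type or moving alike in all 3 lines (up to 5 rises and 5 falls), and the 5 genes most like Gdf15 and Tgfb2, of which 1 is not reported here. The genes and lists were chosen with earlier results of these data known. The fit was tested on simulated data. The fit was repeated with a pseudocount of 0.1, without the filter, with a minimum of 5 TPM, with quantile normalization, median-ratio scaling, only the compared groups, and without each line. Depth is unknown, so no counting interval is given. No libraries were identical, and correlations within a group ran from 0.883 to 0.978. Sequences for Smad7 were not used here.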

Additional observations from a re-analysis of the deposited data

Results flagged for a closer look

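CsA went with opposite directions of Gdf15 in restored cells of the 2 types: the difference Restored + CsA minus Restored was negative in all 3 Type D lines and positive in all 3 Type V lines, and Type D minus Type V was -1.265 on the log2 scale. The contrast of the contrasts, added after the values were seen, was not called in limma (adjusted p = 1, 95% interval -3.67 to 1.14). With the cell line block the interval was -2.17 to -0.36 and the adjusted p was 0.692.

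For Tgfbr2 the difference Restored + CsA minus Control + CsA was positive in all 3 Type D lines and negative in all 3 Type V lines, and Type D minus Type V was 0.5131. It was not called (adjusted p = 1, 95% interval -1.09 to 2.12), and with the block the interval was 0.07 to 0.96 and the adjusted p was 0.17. In Type V it rested mainly on 4711-11, which was at 0.543 times its Control + CsA level, against 0.984 and 0.95 times in the other 2 lines.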

How the results depend on the processing

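The replicate block (cell line, fixed or random) raised the count of called genes among the 10 to 2 in each restoration comparison: from 1 in Type D, in Type V, in Type D under CsA and over the mean of both types, and from 0 in Type V under CsA. The block changed no other call among the 10 genes. In Type V the restoration count was 0 when the groups were fitted alone, and under CsA in Type D it was 0 with a pseudocount of 0.1, no filter, quantile normalization, median-ratio scaling or the groups alone. Leaving out 1 line gave 0 to 1 in Type D, 0 to 1 in Type V, 0 to 1 in Type D under CsA, 0 to 1 in Type V under CsA, 1 to 2 over the mean of both types and, for the type difference in Control + CsA, 2 to 5. Where an arm then held 2 lines, they were assumed to vary like the other groups. No member with a call changed direction. Median-ratio scaling moved the median difference of all genes between types from -0.121 to -0.0178 in Control (with CsA, from -0.134 to -0.0204), and after restoration in Type D under CsA from 0.094 to 0. The share of higher calls after restoration was 64.8% in Type D and 65.3% under CsA, and 54.2% and 53.5% with quantile normalization, and over the mean of both types it went from 67.6% to 57.1%; median-ratio scaling gave 53.9% in Type D under CsA. The cause of these changes was not tested. TPM keep no depth, so values under 1 TPM have an unknown error.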
